A study of Mus musculus with 84 samples.

Results

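The genes described here are 42 mouse genes of macrophages and of lipid-associated macrophages, taken by gene symbol from the 48794 genes listed for epididymal white adipose tissue (eWAT) and liver. They were grouped by role into 6 macrophage identity genes, 11 lipid-associated macrophage genes, 8 chemokines and chemokine receptors, 6 cytokines and pattern recognition genes, 5 Kupffer cell genes and 6 scavenger receptors and genes of resident macrophages. All 42 passed the filter on low values in eWAT, and 41 passed it in liver. Ccl8, a chemokine for monocytes, did not pass in liver, where it had 0 to 15 reads in a library.

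The libraries came from male C57BL/6J mice with diet-induced obesity, kept on a diet with 60% of its energy from fat and 22 weeks old when dosing began. BI456906 is an acylated peptide agonist of both the glucagon receptor and the GLP-1 receptor, and semaglutide is a GLP-1 receptor agonist. The mice were housed singly, randomized on bodyweight and dosed subcutaneously once daily for 30 days, with 11 mice in each group of the study. Every group shared the diet, strain and sex, no lean group was analysed here, and the design therefore compared treatments within obesity.

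There were 7 groups, of which the control group received vehicle. Semaglutide was given at 20 and at 100 nmol/kg, and the BI456906 doses were 3, 10, 20 and 30 nmol/kg. Each group had 6 libraries in eWAT and 6 in liver. Levels are given in TPM, a transcript abundance unit scaled by gene length and library total. Tests were limma/voom fits over the 42 libraries of a tissue, a member passed the test at an adjusted p (false discovery rate over all genes tested) of at most 0.05, and it was called where the change was also at least 2-fold. P-values measured the spread between these mice. In bulk tissue, fewer cells of a type and less RNA per cell cannot be told apart.

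Macrophages in obese fat gather around dying adipocytes and take up their lipid, and in that state they express Trem2, a lipid-sensing receptor, with its adaptor Tyrobp and genes for lysosomal and matrix-degrading proteins such as Ctsk, Acp5, Mmp12 and Gpnmb. In the liver, resident Kupffer cells carry Clec4f, Timd4, Vsig4, Marco and Cd5l, while recruited, monocyte-derived macrophages follow chemokines such as Ccl2 and Ccl7 through the receptor Ccr2. Recruited macrophages of the fatty liver share Trem2, Spp1 and Gpnmb with the lipid-associated cells of fat.

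Recovered reads per library ran from 37573004 to 53996914 in eWAT and from 21676902 to 53869104 in liver. Adipocyte markers summed to 17206 to 33177 TPM in vehicle eWAT against 60 to 235 in vehicle liver, and hepatocyte markers to 81828 to 97980.4 TPM in vehicle liver, so the labelled tissues carried their defining markers. Vehicle eWAT also held 28.3 to 7019.8 TPM of hepatocyte markers, against 25.7 to 1116 at BI456906 30 nmol/kg. Of the eWAT libraries, semaglutide 100 nmol/kg library 40 had a neutrophil marker sum of 469 TPM where the other 41 had at most 19.7. Vehicle eWAT libraries 1 and 3 had T and NK cell marker sums of 108 and 140 TPM against a group median of 26.1, and BI456906 30 nmol/kg eWAT library 29 had the lowest adipocyte marker sum of its group, 15526 TPM. Results that rest on these libraries are given with and without them.

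In vehicle mice most of the 42 genes had higher levels in eWAT than in liver. For 33 of the 42 members every vehicle eWAT library lay above every vehicle liver library, for 3 members the order was reversed, and 6 overlapped. The 2 tissues were normalized in separate tables, so these levels were set side by side with no test. The share of all genes that separated in this way between the tissues was not counted. The 3 genes above in liver were Kupffer cell genes. Clec4f, a lectin of Kupffer cells, averaged 68.7 TPM in liver and 1.95 in eWAT, Cd5l, a scavenger protein secreted by tissue macrophages, 65.02 and 10.3, and Vsig4, a complement receptor, 23.2 and 6.41. The overlapping genes were Marco, Timd4, Cx3cr1, Il1b, Spp1 and Lyve1.

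Lyz2, the lysozyme of myeloid cells, and Lgals3, a galectin, were the most abundant members in vehicle eWAT, with means of 4228 and 3783 TPM against 81.3 and 22.4 in liver. Gpnmb, a membrane glycoprotein of lipid-laden macrophages, averaged 1324 TPM in eWAT and 4.38 in liver, a ratio of 302, and Mmp12, the macrophage elastase, 1435 and 6.79. Ctsk, a cysteine protease, had a ratio of 258 and Trem2 a ratio of 79.8. Spp1, which encodes osteopontin, was at 63.8 TPM in eWAT and 75.2 in liver, with ranges that overlapped. Acp5, an acid phosphatase, was the lipid-associated gene with the highest liver level, 141 TPM, and its ratio of eWAT to liver was 2.07.

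**Figure D1:**
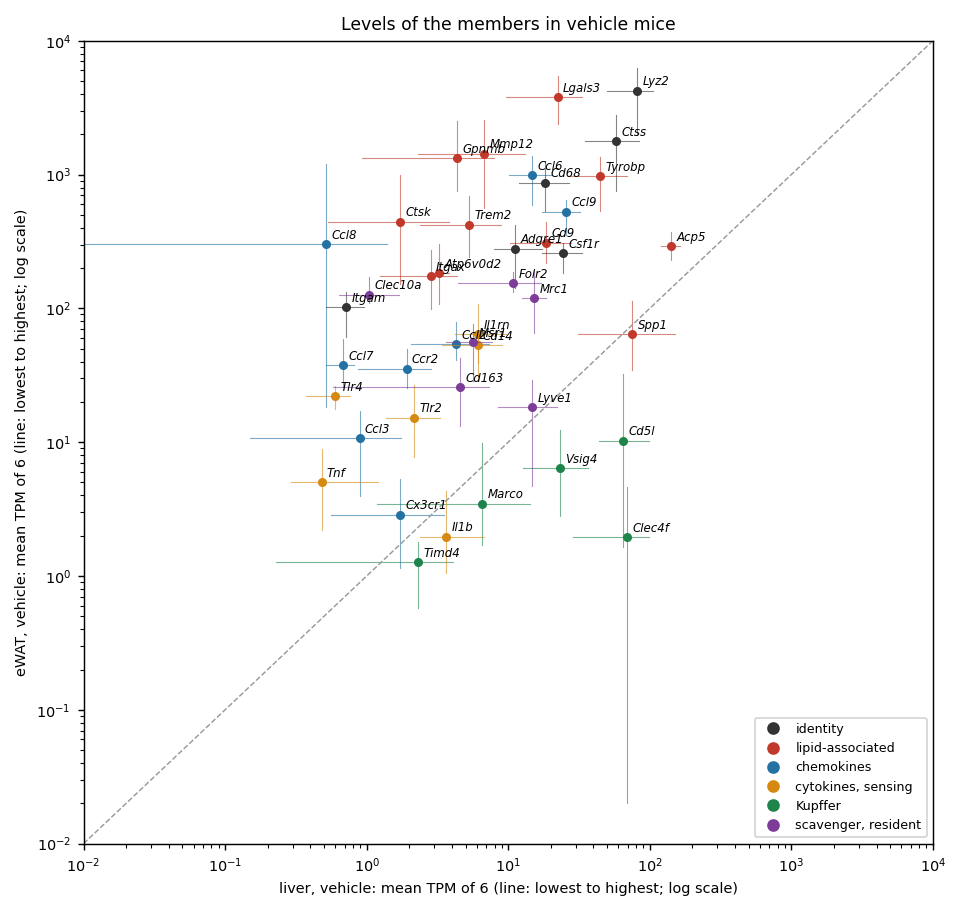
Mean TPM of the 42 genes in 6 vehicle livers (horizontal, log scale) and 6 vehicle eWAT libraries (vertical, log scale), with lines from the lowest to the highest library, values under 0.01 drawn at 0.01 and a dashed line of equal level. Most genes lie above the dashed line, and Clec4f, Cd5l and Vsig4 lie below it.

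Promoters are shown for Trem2, a lipid-associated gene with both motifs marked below, and Spp1, the lipid-associated gene whose vehicle levels overlapped between tissues. The third is Mrc1, which with Cd163 was 1 of 2 scavenger receptor genes that rose in liver at BI456906 30 nmol/kg. RefSeq promoters of build GRCm38.p6 were matched by symbol for 31 of the 42 members, and each window is the 250 bases before the annotated start, given on the gene's strand. Capitals mark GAGGAA, the core of sites for the myeloid factor PU.1, and TGANTCA, the AP-1 motif, each searched on both strands, so that GAGGAA can appear as TTCCTC. The Trem2 window is chr17:48346151-48346400, the Spp1 window chr5:104434861-104435110 and the Mrc1 window chr2:14229164-14229413, all on the plus strand.
Trem2: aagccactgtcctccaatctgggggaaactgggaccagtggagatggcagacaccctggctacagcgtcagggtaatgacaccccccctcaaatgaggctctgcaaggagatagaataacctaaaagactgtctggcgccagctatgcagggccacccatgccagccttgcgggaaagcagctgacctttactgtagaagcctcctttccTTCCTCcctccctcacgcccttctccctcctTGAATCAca
Spp1: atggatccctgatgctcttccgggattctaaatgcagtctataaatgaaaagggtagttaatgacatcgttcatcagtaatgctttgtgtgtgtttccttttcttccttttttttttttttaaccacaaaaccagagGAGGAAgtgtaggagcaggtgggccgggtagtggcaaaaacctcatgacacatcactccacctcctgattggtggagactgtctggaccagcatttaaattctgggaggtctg
Mrc1: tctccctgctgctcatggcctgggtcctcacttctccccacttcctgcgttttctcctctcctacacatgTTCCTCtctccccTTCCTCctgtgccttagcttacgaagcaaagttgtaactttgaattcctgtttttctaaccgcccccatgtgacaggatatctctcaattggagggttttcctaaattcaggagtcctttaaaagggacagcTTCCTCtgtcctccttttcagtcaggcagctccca
GAGGAA was found in 14 of the 31 member windows (45.2%) and in 23.3% of all 32851 windows of the same length. TGANTCA was found in 5 of 31 (16.1%) and in 6.75% of all, and CACGTG, the E-box of lysosomal gene control by TFEB, in 0 of 31 and in 6.02% of all. The 2 capitalized motifs do not share letters with each other. Of the 17 windowed members that went down in liver at BI456906 30 nmol/kg, 8 (47.1%) held GAGGAA, against 5 of the 12 (41.7%) that did not pass the test there. Of the 2 windowed members that rose there, Mrc1 held GAGGAA and Cd163, whose window is not shown, did not. These matches describe letters in a window and were not tested as binding sites.

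In liver, most of the 41 members fell at the highest dose of each compound, and the Kupffer cell genes did not pass the test at those doses. At BI456906 30 nmol/kg, 23 of the 41 members fell and 3 rose, against 29.9% and 28.9% of all 15964 genes tested, which is 56.1% and 7.32% of the members, and 13 were called lower and 1 higher, against 6.9% and 5.99%. At semaglutide 100 nmol/kg, 23 fell and 2 rose, against 24.1% and 24% of all genes, with 14 called lower and 1 higher, against 3.67% and 3.08%. The median log2 fold change over the members was -0.62 and -0.71, where over all genes it was -0.03 and -0.02. Both comparisons used the same 6 vehicle livers.

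At the lower doses of BI456906 fewer members passed. At 3 nmol/kg 2 fell and 1 rose, against 4.93% and 8.46% of all genes, and those were Ccl2, Acp5 and Mrc1, which passed under each of 18 leave-outs of single vehicle and highest-dose libraries. No library of BI456906 3, 10 or 20 or semaglutide 20 nmol/kg was itself left out, here or below. The leave-outs therefore do not show how far a result rests on single libraries of those groups. In the 3 nmol/kg group, library 49 held 7.26 TPM of Ccl2 where the next library held 2.52. At that dose edgeR and DESeq2 each called 0 members at 2-fold, against 1 by limma/voom. At 10 nmol/kg 10 fell and 2 rose (18.1% and 19.4% of all genes), and at 20 nmol/kg 20 fell and 1 rose (22.9% and 23%). At semaglutide 20 nmol/kg 22 fell and 1 rose, the scavenger receptor gene Mrc1 (23.5% and 23% of all genes). Over the 4 doses and vehicle, a straight-line slope passed the test below 0 for 23 members and above 0 for 4, against 29.6% and 29.3% of all genes. The 4 above 0 were Mrc1, Cd163, Tlr4 and Cd9. The counts at 10 nmol/kg rested on single vehicle livers. Without vehicle library 45, 4 members fell at 10 nmol/kg, as Atp6v0d2, Ccl9, Il1b, Itgax, Lgals3 and Lyve1 no longer passed, without library 43 or 46 it was 6, and without library 47 it was 17. At 3 nmol/kg 5 fell without library 47 and 4 without library 44. At 20 nmol/kg 14 to 22 fell over the leave-outs, and Ccr2 and Ctss, with adjusted p of 0.0485 and 0.0455 there, were lost in 15 and 13 of the 18. At semaglutide 20 nmol/kg 17 to 24 fell.

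**Figure D2:**
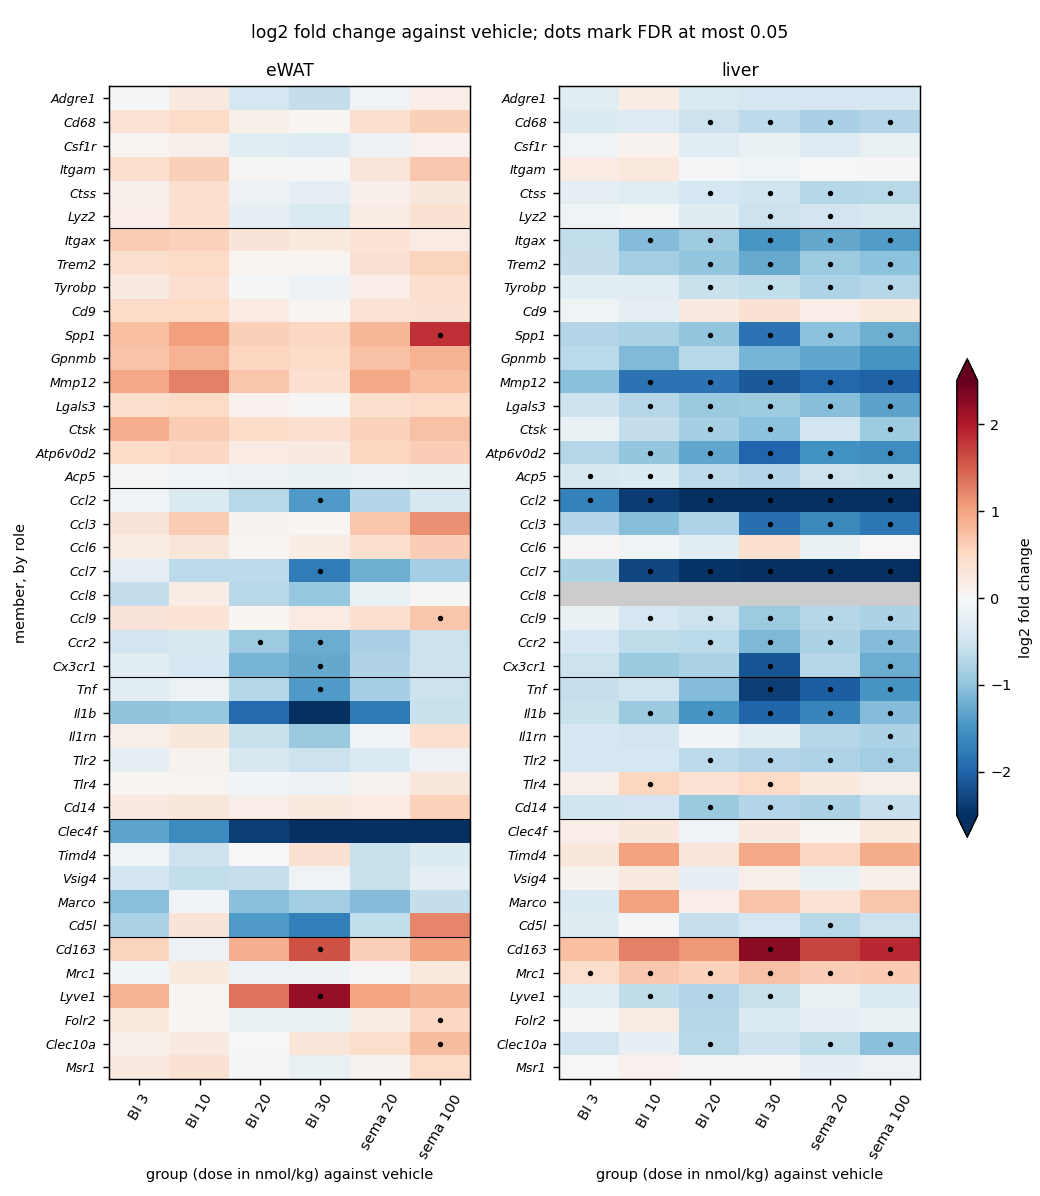
log2 fold change against vehicle of the 42 genes (rows, by role) in eWAT and liver for the 6 treatment groups (columns, dose in nmol/kg), with dots where the adjusted p was at most 0.05 and grey for Ccl8 in liver, which was not tested. The liver panel holds 23 falling and 3 rising genes at BI456906 30 nmol/kg, and the eWAT panel 5 and 2.

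Of the 6 roles, the chemokine genes had the lowest median log2 fold change in liver, -1.88 at BI456906 30 nmol/kg. Of the 7 tested, 6 fell at BI456906 30 nmol/kg and 6 at semaglutide 100 nmol/kg. Ccl6 did not pass, with a log2 fold change of 0.40 at BI456906 30 nmol/kg. Ccl2 had a median of 4.54 TPM in the vehicle livers, with a range of 2.06 to 7.36. Ccl2 medians at 3, 10, 20 and 30 nmol/kg of BI456906 were 1.03, 0.835, 0.74 and 0.505 TPM, with ranges of 0.22 to 7.26, 0.61 to 1.19, 0.11 to 1.89 and 0.15 to 0.7. Ccl2 in the semaglutide groups had medians of 0.51 TPM at 20 and 0.495 TPM at 100 nmol/kg, with ranges of 0.39 to 0.76 and 0.26 to 0.75. Ccl2 encodes the main ligand of Ccr2, and its vehicle values lay above every value at 10, 20 and 30 nmol/kg of BI456906 and at both semaglutide doses, with overlap at 3 nmol/kg alone. The log2 fold change of Ccl2 was -3.19 (95% interval -4.26 to -2.11, adjusted p = 3.08e-06) at BI456906 30 nmol/kg and -3.09 (95% interval -4.15 to -2.03, adjusted p = 8.33e-06) at semaglutide 100 nmol/kg, and -1.69 (95% interval -2.51 to -0.87, adjusted p = 0.00606) at BI456906 3 nmol/kg.

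Ccl7 had a median of 0.675 TPM in the vehicle livers, with a range of 0.52 to 0.82. Ccl7 medians at 3, 10, 20 and 30 nmol/kg of BI456906 were 0.33, 0.22, 0.135 and 0.05 TPM, with ranges of 0.15 to 1.75, 0 to 0.33, 0.05 to 0.25 and 0 to 0.11. Ccl7 in the semaglutide groups had medians of 0.08 TPM at 20 and 0.05 TPM at 100 nmol/kg, with ranges of 0.05 to 0.11 and 0 to 0.19. Ccl7, a second Ccr2 ligand, was at the edge of detection, with 11 to 18 reads in a vehicle liver and 0 to 2 at BI456906 30 nmol/kg. The vehicle livers lay above all livers of the same 5 groups as for Ccl2, and the fitted log2 fold change was -3.71 (95% interval -4.83 to -2.60, adjusted p = 3.77e-07) and -3.32 (95% interval -4.43 to -2.21, adjusted p = 5.93e-06) at the highest doses, values that depend on the pseudocount at so few reads.

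Ccl9 had a median of 26.2 TPM in the vehicle livers, with a range of 17.3 to 32.4. Ccl9 medians at 3, 10, 20 and 30 nmol/kg of BI456906 were 23.9, 19.2, 18.2 and 14.5 TPM, with ranges of 19.8 to 32.8, 12.5 to 23, 12.7 to 25 and 11.4 to 24.5. Ccl9 in the semaglutide groups had medians of 15.8 TPM at 20 and 16 TPM at 100 nmol/kg, with ranges of 11.3 to 24.5 and 8.59 to 26.9. Ccl9 encodes a chemokine that myeloid cells make themselves, and its values overlapped with vehicle in every group. It fell, with a log2 fold change of -0.91 (95% interval -1.28 to -0.53, adjusted p = 6.04e-05) at BI456906 30 nmol/kg and -0.80 (95% interval -1.17 to -0.43, adjusted p = 0.000433) at semaglutide 100 nmol/kg. Ccr2 (log2 fold change -1.12 and -1.09), the fractalkine receptor Cx3cr1 (-2.15 and -1.23) and the chemokine Ccl3 (-1.88 and -1.81) also fell at both highest doses. Ccl3 rested on few reads, 1 to 39 in a liver library. For semaglutide 100 nmol/kg, when vehicle library 43 or 46, or semaglutide library 81 or 83 was left out alone, the adjusted p of Cx3cr1 was 0.0579 to 0.0852.

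**Figure D3:**
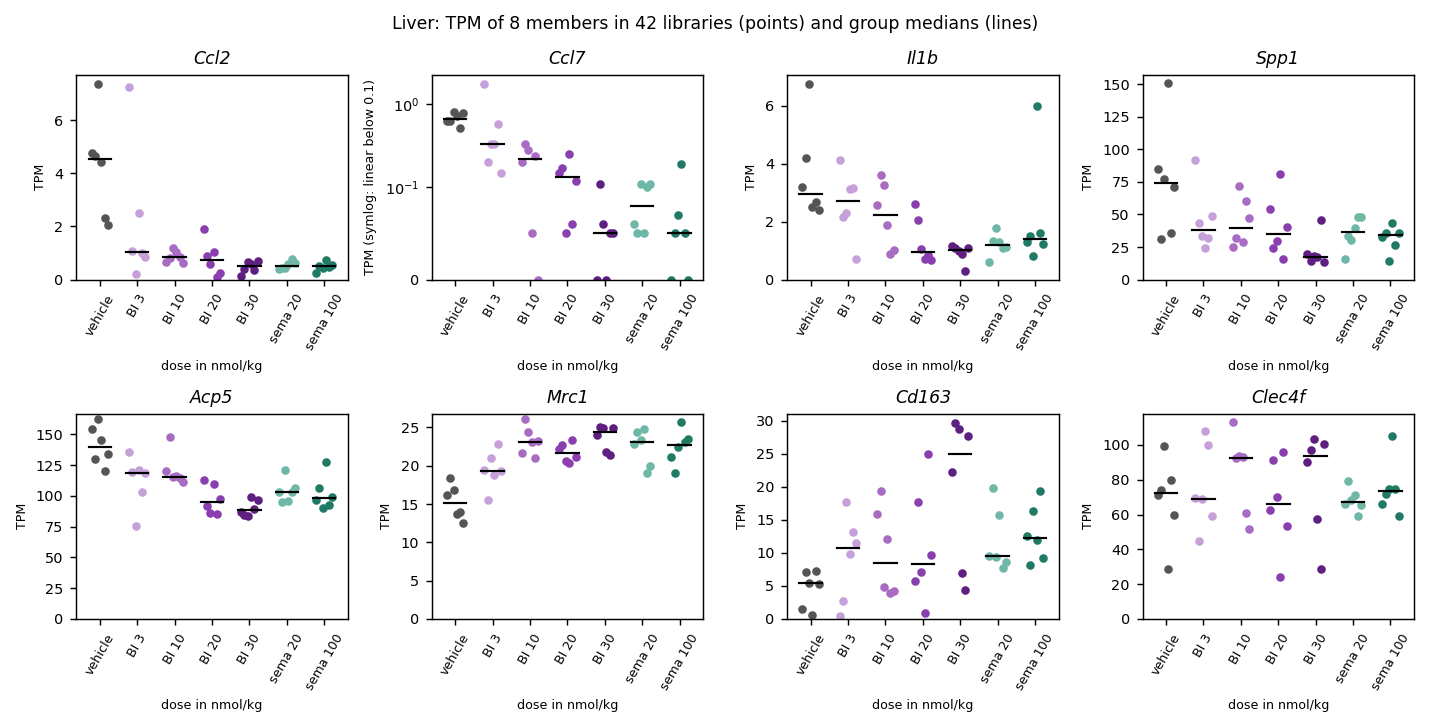
TPM in the 42 liver libraries (points) and group medians (lines) for Ccl2, Ccl7, Il1b, Spp1, Acp5, Mrc1, Cd163 and Clec4f, by group with doses in nmol/kg. Panels labelled symlog are linear below 0.1 TPM. Ccl2 lies between 2.06 and 7.36 TPM in vehicle livers and between 0.15 and 0.7 at BI456906 30 nmol/kg, while Mrc1 lies higher there than in vehicle livers and Clec4f overlaps.

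Lipid-associated macrophage genes also fell in liver, 9 of 11 at each highest dose, with a median log2 fold change of -1.17 and -1.22. Spp1 had a median of 74.1 TPM in the vehicle livers, with a range of 31.3 to 151. Spp1 medians at 3, 10, 20 and 30 nmol/kg of BI456906 were 38.3, 39.5, 34.8 and 17.7 TPM, with ranges of 24.3 to 91.8, 25.2 to 72, 16 to 81.2 and 13.2 to 45.5. Spp1 in the semaglutide groups had medians of 36.5 TPM at 20 and 34.2 TPM at 100 nmol/kg, with ranges of 16.1 to 48.2 and 14.5 to 43.3. Spp1 overlapped with vehicle in every group, and its lowest vehicle liver was at 31.3 TPM. Its log2 fold change was -1.84 (95% interval -2.59 to -1.10, adjusted p = 5.09e-05) at BI456906 30 nmol/kg, 3.58-fold lower, and -1.22 (95% interval -1.93 to -0.50, adjusted p = 0.0047) at semaglutide 100 nmol/kg. The 4 cholangiocyte markers had median sums of 8.285 TPM in vehicle livers, 4.29 at BI456906 30 nmol/kg and 7.305 at semaglutide 100 nmol/kg. Their ranges overlapped, 5.98 to 16.95, 3.78 to 11.88 and 5.05 to 8.84 TPM, and their part in the fall of Spp1 was not tested.

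Acp5 had a median of 140.2 TPM in the vehicle livers, with a range of 121 to 162. Acp5 medians at 3, 10, 20 and 30 nmol/kg of BI456906 were 119, 116, 94.9 and 88.5 TPM, with ranges of 75.2 to 136, 112 to 148, 85.5 to 113 and 83.8 to 99. Acp5 in the semaglutide groups had medians of 103 TPM at 20 and 97.9 TPM at 100 nmol/kg, with ranges of 95.2 to 121 and 89.9 to 128. All 6 livers at 20 and at 30 nmol/kg of BI456906 lay below all 6 vehicle livers for Acp5, while the semaglutide groups overlapped with vehicle. Acp5 had the narrowest spread of the group, and its log2 fold change was -0.73 (95% interval -0.91 to -0.55, adjusted p = 9.59e-09) and -0.56 (95% interval -0.74 to -0.37, adjusted p = 4.04e-06). Acp5 also fell at 3 nmol/kg (log2 fold change -0.40, 95% interval -0.58 to -0.22, adjusted p = 0.00444). Mean vehicle liver levels were 141 TPM for Acp5 and 18.3 for Cd68, and the part of cells other than macrophages in the Acp5 values was not tested.

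Among the other lipid-associated genes in liver, Mmp12 changed by -2.10 and -2.02 on the log2 scale at BI456906 30 and semaglutide 100 nmol/kg. Atp6v0d2, a subunit of the lysosomal proton pump, changed by -1.97 and -1.55, and did not overlap with vehicle at BI456906 20 and 30 nmol/kg. Itgax, which encodes CD11c, changed by -1.45 and -1.41, Trem2 by -1.26 and -1.03, and Ctsk by -1.02 and -0.88. Lgals3 (-0.89 and -1.34) and Tyrobp (-0.62 and -0.71) completed the 9 that fell at both. Cd9, a tetraspanin, and Gpnmb did not pass at either, with log2 fold changes of 0.38 and -1.17 at BI456906 30 nmol/kg. Gpnmb passed when BI456906 library 71 (log2 fold change -1.75, adjusted p = 0.0312) or vehicle library 47 (-1.51, 0.0379) was left out. With semaglutide 100 nmol/kg Gpnmb passed without vehicle library 44 (-1.69, adjusted p = 0.0412) or 47 (-1.82, 0.0219). Cd9, in turn, passed upward when vehicle library 43, 45 or 46, or BI456906 library 69, 70 or 72, was left out alone, with adjusted p from 0.0154 to 0.0438. For semaglutide 100 nmol/kg, when vehicle library 43 or 46, or semaglutide library 81 was left out alone, the adjusted p of Trem2 was 0.0642 to 0.0828, and without vehicle library 46 the adjusted p of Ctsk was 0.0694.

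Of the 6 cytokine and pattern recognition genes, 4 fell in liver at BI456906 30 nmol/kg, Il1rn did not pass, and Tlr4, the endotoxin receptor, rose by a log2 fold change of 0.51. With semaglutide 100 nmol/kg 5 fell, and Tlr4 was at 0.14 with an adjusted p of 0.489. Il1b had a median of 2.95 TPM in the vehicle livers, with a range of 2.39 to 6.76. Il1b medians at 3, 10, 20 and 30 nmol/kg of BI456906 were 2.71, 2.23, 0.94 and 1.03 TPM, with ranges of 0.7 to 4.13, 0.9 to 3.62, 0.69 to 2.61 and 0.3 to 1.15. Il1b in the semaglutide groups had medians of 1.21 TPM at 20 and 1.41 TPM at 100 nmol/kg, with ranges of 0.6 to 1.78 and 0.81 to 6.01. The interleukin-1 beta gene did not overlap with vehicle at BI456906 30 nmol/kg and semaglutide 20 nmol/kg, and overlapped in the other groups. Its log2 fold change was -2.01 (95% interval -2.89 to -1.13, adjusted p = 0.000145) and -1.09 (95% interval -1.83 to -0.34, adjusted p = 0.015) at the highest doses.

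Tnf had a median of 0.355 TPM in the vehicle livers, with a range of 0.29 to 1.21. Tnf medians at 3, 10, 20 and 30 nmol/kg of BI456906 were 0.275, 0.28, 0.23 and 0.115 TPM, with ranges of 0.14 to 0.82, 0.13 to 1.4, 0.12 to 0.56 and 0.02 to 0.17. Tnf in the semaglutide groups had medians of 0.08 TPM at 20 and 0.15 TPM at 100 nmol/kg, with ranges of 0.05 to 0.16 and 0.05 to 0.33. Tnf rested on few reads, 15 to 63 in a vehicle liver and 1 to 8 at BI456906 30 nmol/kg. Its livers at BI456906 30 and semaglutide 20 nmol/kg lay below all vehicle livers, and the log2 fold change was -2.36 (95% interval -3.53 to -1.20, adjusted p = 0.000585) at BI456906 30 nmol/kg and -1.47 (95% interval -2.48 to -0.45, adjusted p = 0.0156) at semaglutide 100 nmol/kg. Il1rn had a median of 5.71 TPM in the vehicle livers, with a range of 4.18 to 9.64. Il1rn medians at 3, 10, 20 and 30 nmol/kg of BI456906 were 5.62, 5.46, 6.5 and 6.28 TPM, with ranges of 2.25 to 11.5, 2.66 to 7.01, 3.53 to 10.8 and 3.91 to 7.53. Il1rn in the semaglutide groups had medians of 4.5 TPM at 20 and 4.49 TPM at 100 nmol/kg, with ranges of 2.49 to 5.98 and 2.46 to 7.38. Il1rn, which encodes the interleukin-1 receptor antagonist, overlapped with vehicle in every group. It fell at semaglutide 100 nmol/kg (log2 fold change -0.78, 95% interval -1.43 to -0.13, adjusted p = 0.0423), and did not pass at BI456906 30 nmol/kg (log2 fold change -0.27, 95% interval -0.87 to 0.34, adjusted p = 0.451).

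Tlr2 and the endotoxin co-receptor Cd14 fell at both highest doses in liver, with log2 fold changes of -0.74 and -0.73 at BI456906 30 nmol/kg. The calls at semaglutide 100 nmol/kg leaned on single libraries. There, when vehicle library 45, or semaglutide library 84 was left out alone, the adjusted p of Tnf was 0.0579 to 0.0599, and when vehicle library 45, or semaglutide library 81 was left out alone, the adjusted p of Il1b was 0.0551 to 0.0585. In the same comparison, when vehicle library 43, 45 or 46, or semaglutide library 80, 83 or 84 was left out alone, the adjusted p of Il1rn was 0.0529 to 0.126, and when vehicle library 45, 46 or 48, or semaglutide library 80 or 84 was left out alone, the adjusted p of Cd14 was 0.0506 to 0.095. Markers of other cells were followed beside these genes. The 5 neutrophil markers, all detected in liver and 2 of them under 1 TPM throughout, summed to 3.23 to 5.84 TPM in vehicle livers, 0.81 to 4.46 at BI456906 30 nmol/kg and 0.97 to 3.43 at semaglutide 100 nmol/kg, and the part of these cells in the fall of Il1b and Tnf was not tested. T and NK cell markers in the same groups summed to 1.69 to 10.1, 3.32 to 4.74 and 2.3 to 4.74 TPM. Hepatocyte markers summed to 81828 to 97980.4, 95351 to 109150 and 93391 to 118058 TPM, and since TPM is a share of the library, their part in the lower values was not tested.

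Pan-macrophage identity genes moved less in liver than chemokines did by their medians, -0.46 against -1.88 at BI456906 30 nmol/kg, a difference that was not tested. Of the 6, Cd68, Ctss and Lyz2 fell at BI456906 30 nmol/kg, and Cd68 and Ctss at semaglutide 100 nmol/kg. Cd68 had a median of 16.6 TPM in the vehicle livers, with a range of 11.8 to 26.9. Cd68 medians at 3, 10, 20 and 30 nmol/kg of BI456906 were 13.7, 15.3, 11.3 and 12.3 TPM, with ranges of 10.1 to 25.3, 12.1 to 19.2, 10.7 to 18.9 and 9.36 to 13.7. Cd68 in the semaglutide groups had medians of 9.93 TPM at 20 and 10.7 TPM at 100 nmol/kg, with ranges of 9.01 to 16.7 and 8.86 to 14.6. Cd68, a lysosomal glycoprotein of macrophages, overlapped with vehicle in every group, and its log2 fold change was -0.65 (95% interval -0.99 to -0.31, adjusted p = 0.00118) and -0.73 (95% interval -1.07 to -0.38, adjusted p = 0.000585).

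Lyz2 had a median of 84.1 TPM in the vehicle livers, with a range of 50.1 to 105. Lyz2 medians at 3, 10, 20 and 30 nmol/kg of BI456906 were 76.3, 80.5, 65.1 and 57 TPM, with ranges of 46.8 to 152, 63.3 to 118, 52.7 to 110.2 and 53.2 to 61.1. Lyz2 in the semaglutide groups had medians of 56.3 TPM at 20 and 58.4 TPM at 100 nmol/kg, with ranges of 45.2 to 100.4 and 49.1 to 93.7. Lyz2 overlapped throughout. It fell at BI456906 30 nmol/kg (log2 fold change -0.54, 95% interval -0.93 to -0.15, adjusted p = 0.0154) and did not pass at semaglutide 100 nmol/kg (log2 fold change -0.39, 95% interval -0.78 to -0.00, adjusted p = 0.0884). It passed there without vehicle library 47 or semaglutide library 82 (adjusted p = 0.0328 and 0.0441). Ctss, a lysosomal cysteine protease, was at -0.50 and -0.68. For BI456906 30 nmol/kg, when vehicle library 43 or 45, or BI456906 library 70 was left out alone, the adjusted p of Ctss was 0.054 to 0.0714. The other 3 genes, which did not pass, were the F4/80 gene Adgre1 (-0.42 and -0.44), the colony-stimulating factor receptor Csf1r (-0.17 and -0.19) and the integrin Itgam (-0.11 and -0.05).

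None of the 5 Kupffer cell genes passed the test in liver at BI456906 30 or semaglutide 100 nmol/kg by limma/voom, edgeR or DESeq2, and 0 had an unadjusted p under 0.05. Clec4f had a median of 72.7 TPM in the vehicle livers, with a range of 28.5 to 99.4. Clec4f medians at 3, 10, 20 and 30 nmol/kg of BI456906 were 69.1, 92.8, 66.2 and 93.5 TPM, with ranges of 44.8 to 108, 51.8 to 113, 24 to 96.2 and 28.4 to 104. Clec4f in the semaglutide groups had medians of 67.3 TPM at 20 and 73.3 TPM at 100 nmol/kg, with ranges of 59.1 to 79.2 and 59.1 to 105. Clec4f overlapped with vehicle in every group. Its log2 fold change was 0.23 (95% interval -0.40 to 0.87, adjusted p = 0.535) at BI456906 30 nmol/kg and 0.26 (95% interval -0.37 to 0.89, adjusted p = 0.513) at semaglutide 100 nmol/kg, so the intervals hold changes of either sign.

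Timd4 had a median of 2.75 TPM in the vehicle livers, with a range of 0.23 to 4.07. Timd4 medians at 3, 10, 20 and 30 nmol/kg of BI456906 were 2.47, 3.6, 2.55 and 4.3 TPM, with ranges of 0.5 to 4.82, 1.11 to 10.5, 0.28 to 5.51 and 1.05 to 5. Timd4 in the semaglutide groups had medians of 2.44 TPM at 20 and 3.07 TPM at 100 nmol/kg, with ranges of 1.74 to 3.74 and 2.02 to 5.25. Timd4, a receptor for dying cells that marks long-lived Kupffer cells, ranged widely among vehicle livers, and its log2 fold change was 0.94 (95% interval -0.34 to 2.22, adjusted p = 0.2) and 0.92 (95% interval -0.36 to 2.20, adjusted p = 0.234). Cd5l had a median of 61.7 TPM in the vehicle livers, with a range of 44.1 to 98.7. Cd5l medians at 3, 10, 20 and 30 nmol/kg of BI456906 were 52.1, 55.1, 49.9 and 57.3 TPM, with ranges of 36.6 to 74.5, 43 to 198, 21.7 to 64.5 and 25.5 to 63.8. Cd5l in the semaglutide groups had medians of 39 TPM at 20 and 43.1 TPM at 100 nmol/kg, with ranges of 28.2 to 61.5 and 35.7 to 64.2. Cd5l overlapped with vehicle in every group, with log2 fold changes of -0.42 (95% interval -1.01 to 0.17, adjusted p = 0.217) and -0.55 (95% interval -1.13 to 0.04, adjusted p = 0.118), and fell at semaglutide 20 nmol/kg (log2 fold change -0.70, 95% interval -1.29 to -0.11, adjusted p = 0.0449). That call was lost in 8 of the 18 leave-outs, without vehicle library 43, 44, 45 or 48, BI456906 library 67, or semaglutide library 79, 83 or 84, with adjusted p of up to 0.124. Vsig4 was at 0.13 (95% interval -0.39 to 0.66) and Marco at 0.71 (95% interval -0.84 to 2.25) for BI456906 30 nmol/kg.

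Of the scavenger receptor genes in liver, Mrc1 and Cd163 rose and Lyve1 fell at BI456906 30 nmol/kg. Mrc1 had a median of 15.1 TPM in the vehicle livers, with a range of 12.6 to 18.4. Mrc1 medians at 3, 10, 20 and 30 nmol/kg of BI456906 were 19.4, 23.1, 21.6 and 24.4 TPM, with ranges of 15.5 to 22.8, 21 to 26.1, 20.3 to 23.4 and 21.4 to 25.1. Mrc1 in the semaglutide groups had medians of 23.1 TPM at 20 and 22.7 TPM at 100 nmol/kg, with ranges of 19 to 24.8 and 19.1 to 25.7. Mrc1, the mannose receptor, which sinusoidal endothelium also carries, lay above all vehicle livers at 10, 20 and 30 nmol/kg of BI456906 and at both semaglutide doses. It rose, with log2 fold changes of 0.72 (95% interval 0.54 to 0.90, adjusted p = 1.23e-08) and 0.66 (95% interval 0.48 to 0.84, adjusted p = 2.62e-07) at the highest doses, and passed at every dose. The 4 endothelium markers summed to 58.1 to 78.5 TPM in vehicle livers, 69.5 to 78 at BI456906 30 nmol/kg and 70.5 to 90.5 at semaglutide 100 nmol/kg, with the groups overlapping.

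Cd163 had a median of 5.37 TPM in the vehicle livers, with a range of 0.58 to 7.29. Cd163 medians at 3, 10, 20 and 30 nmol/kg of BI456906 were 10.7, 8.4, 8.37 and 24.9 TPM, with ranges of 0.42 to 17.8, 3.98 to 19.4, 0.83 to 25 and 4.41 to 29.6. Cd163 in the semaglutide groups had medians of 9.47 TPM at 20 and 12.3 TPM at 100 nmol/kg, with ranges of 7.69 to 19.8 and 8.1 to 19.3. Cd163, the haemoglobin scavenger receptor, lay above all vehicle livers in both semaglutide groups and overlapped in the BI456906 groups. It rose, with log2 fold changes of 2.25 (95% interval 0.67 to 3.84, adjusted p = 0.0131) at BI456906 30 nmol/kg and 1.89 (95% interval 0.30 to 3.48, adjusted p = 0.0448) at semaglutide 100 nmol/kg. For semaglutide 100 nmol/kg, when vehicle library 43, 45, 46 or 48, or semaglutide library 79, 81, 82 or 83 was left out alone, the adjusted p of Cd163 was 0.0517 to 0.136. Lyve1, a hyaluronan receptor of resident macrophages and also of lymphatic and sinusoidal endothelium, fell at BI456906 30 nmol/kg (log2 fold change -0.56, 95% interval -1.03 to -0.09, adjusted p = 0.0357). However, when vehicle library 43, 45, 46 or 48, or BI456906 library 67, 68, 69 or 70 was left out alone, the adjusted p of Lyve1 was 0.0506 to 0.138. Clec10a, a lectin for galactose-type sugars, fell at semaglutide 100 nmol/kg (-1.04) and was at -0.52 at BI456906 30 nmol/kg, and the folate receptor Folr2 (-0.36 and -0.17) and the scavenger receptor Msr1 (-0.05 and -0.15) passed at neither.

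Across the 41 members in liver, 6 did not overlap with vehicle and lay lower at BI456906 30 nmol/kg, and 1 lay higher. These were Ccl2, Ccl7, Il1b, Tnf, Acp5 and Atp6v0d2, and Mrc1. At semaglutide 100 nmol/kg 3 lay wholly lower, Ccl2, Ccl7 and Lgals3, and 2 wholly higher, Mrc1 and Cd163. How many of all genes separated in this way was not counted, so these counts describe the members alone.

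In eWAT, Ccr2, Cx3cr1, Tnf, Ccl7 and Ccl2 fell at BI456906 30 nmol/kg, and the 11 lipid-associated genes did not pass the test there. At BI456906 30 nmol/kg, 5 of the 42 members fell and 2 rose, against 13% and 10.9% of all 18536 genes tested. All 7 were also called at 2-fold, against 4.07% and 2.28% of all genes. The shares of members were 11.9% and 4.76% by either measure. By the test alone the share that fell was near that of all genes, and the share that rose was below it. The 2 that rose were Lyve1 and Cd163, and of the 8 chemokine and receptor genes 4 fell while Ccl3, Ccl6, Ccl8 and Ccl9 did not pass. At semaglutide 100 nmol/kg 0 fell by limma/voom and 4 rose, Spp1, Ccl9, Clec10a and Folr2, against 9.42% and 5.48% of all genes, with 13 of 42 at an unadjusted p under 0.05. Spp1 alone was called, against 3.44% lower and 0.696% higher of all genes, and of the tools DESeq2 had Clec4f fall and edgeR had none fall. The count of 0 that fell changed with single libraries, as Clec4f fell without vehicle library 1. Without semaglutide library 40, 3 members fell, Ccl7 (-1.61, adjusted p = 0.0116), Ccr2 and Il1b, and of the 4 that rose Clec10a alone passed. Leaving out library 41 also left 1 that rose, without library 38 it was 9, and without vehicle library 1 or 4 or BI456906 library 29 it was 6.

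With the smaller doses few members passed in eWAT. At BI456906 3 nmol/kg 0 of 42 passed, against 0% lower and 0.00539% higher of all genes, with 2 at an unadjusted p under 0.05. At 10 nmol/kg 0 of 42 passed, against 0.464% and 0.0486%, with 3 at an unadjusted p under 0.05. In both comparisons limma/voom, edgeR and DESeq2 each gave 0. At 20 nmol/kg Ccr2 fell and no other member passed, against 2.91% and 1.36%, while edgeR passed Cx3cr1 too and DESeq2 passed 7 members. Semaglutide at 20 nmol/kg gave 0 of 42 by limma/voom, against 4.54% and 1.8%, with 10 at an unadjusted p under 0.05, while edgeR passed Clec4f there and DESeq2 Clec4f and Ccr2. Without semaglutide 100 nmol/kg library 40, which shares in the estimate of the spread, 3 members fell at BI456906 20 nmol/kg and 3 at semaglutide 20 nmol/kg. Over the doses of BI456906, the slope passed the test below 0 for 9 members and above 0 for 2, against 15.8% and 13.8% of all genes. The 9 were Ccr2, Cx3cr1, Ccl7, Ccl2, Tnf, Il1rn, Adgre1, Csf1r and Folr2. The slopes of Ccr2, Cx3cr1, Tnf, Lyve1 and Cd163 passed under all 18 leave-outs. Without BI456906 library 30 the slopes of Ccl7, Ccl2, Il1rn, Adgre1, Csf1r and Folr2 did not pass. Over the other leave-outs those of Ccl7 and Ccl2 passed, while those of Il1rn, Adgre1, Csf1r and Folr2 missed in 3, 7, 12 and 6 of the 18 in all, with adjusted p of up to 0.0946.

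Ccr2 had a median of 31.2 TPM in the vehicle fat pads, with a range of 25.5 to 50. Ccr2 medians at 3, 10, 20 and 30 nmol/kg of BI456906 were 24.4, 24.9, 19.9 and 14.9 TPM, with ranges of 19.7 to 30.4, 18.7 to 39.8, 13.1 to 24.1 and 12 to 18.4. Ccr2 in the semaglutide groups had medians of 21 TPM at 20 and 19.9 TPM at 100 nmol/kg, with ranges of 14.1 to 22.1 and 13.2 to 90.5. Ccr2 lay below all vehicle fat pads at BI456906 20 and 30 nmol/kg and at semaglutide 20 nmol/kg. It fell, with log2 fold changes of -1.25 (95% interval -1.80 to -0.70, adjusted p = 0.00117) at BI456906 30 nmol/kg and -0.91 (95% interval -1.46 to -0.37, adjusted p = 0.0444) at 20 nmol/kg. The call at 20 nmol/kg was lost in 11 of 18 leave-outs of single vehicle and highest-dose libraries, with adjusted p of up to 0.109. These were vehicle libraries 1, 2, 3, 5 and 6, BI456906 libraries 26, 27, 29 and 30 and semaglutide libraries 41 and 42. At semaglutide 20 nmol/kg its log2 fold change was -0.81 (95% interval -1.36 to -0.27, adjusted p = 0.0615), which did not pass. For semaglutide 100 nmol/kg it was -0.53 (95% interval -1.08 to 0.01, adjusted p = 0.177), a group in which library 40 held 90.5 TPM. Without that library it was -0.93 with an adjusted p of 0.000859.

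Cx3cr1 had a median of 2.21 TPM in the vehicle fat pads, with a range of 1.14 to 5.35. Cx3cr1 medians at 3, 10, 20 and 30 nmol/kg of BI456906 were 2.09, 1.7, 1.34 and 0.925 TPM, with ranges of 1.67 to 2.4, 1.16 to 3.39, 0.49 to 1.81 and 0.81 to 1.57. Cx3cr1 in the semaglutide groups had medians of 1.47 TPM at 20 and 1.33 TPM at 100 nmol/kg, with ranges of 1.15 to 1.93 and 1.09 to 5.54. Cx3cr1 overlapped with vehicle in every group and fell at BI456906 30 nmol/kg (log2 fold change -1.28, 95% interval -2.03 to -0.54, adjusted p = 0.0107). It no longer passed without vehicle libraries 1 and 3 (-0.77, adjusted p = 0.146), the 2 fat pads with the most T and NK cell markers.

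Ccl2 and Ccl7, the ligands of Ccr2, lay below all vehicle fat pads at BI456906 30 nmol/kg. Ccl2 ranged from 41.1 to 78.6 TPM in vehicle eWAT and from 10.8 to 32.5 at that dose, and Ccl7 from 25.9 to 59 and from 6.77 to 19.1. The log2 fold changes were -1.41 (95% interval -2.47 to -0.36, adjusted p = 0.0441) and -1.74 (95% interval -2.92 to -0.57, adjusted p = 0.026), close to the threshold. In detail, when vehicle library 1, 2, 3 or 4, BI456906 library 25, 26, 27, 28 or 30, or semaglutide library 37, 38, 41 or 42 was left out alone, the adjusted p of Ccl2 was 0.0503 to 0.106. Likewise, when vehicle library 1, or BI456906 library 26 or 30 was left out alone, the adjusted p of Ccl7 was 0.0554 to 0.0599. Without vehicle libraries 1 and 3 together the values were -1.26 (adjusted p = 0.133) for Ccl2 and -1.48 (0.105) for Ccl7.

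Ccl6 had a median of 944 TPM in the vehicle fat pads, with a range of 591 to 1384. Ccl6 medians at 3, 10, 20 and 30 nmol/kg of BI456906 were 1002, 1293, 1004 and 1039 TPM, with ranges of 948 to 1301, 689 to 1548, 876 to 1137 and 917 to 1697. Ccl6 in the semaglutide groups had medians of 1307 TPM at 20 and 1347 TPM at 100 nmol/kg, with ranges of 997 to 1556 and 861 to 2348. Ccl6, the most abundant chemokine gene of the set in eWAT, overlapped in every group and did not pass, with a log2 fold change of 0.19 (95% interval -0.25 to 0.62, adjusted p = 0.558) at BI456906 30 nmol/kg and 0.61 (95% interval 0.16 to 1.05, adjusted p = 0.0548) at semaglutide 100 nmol/kg. Ccl9 rose at semaglutide 100 nmol/kg (log2 fold change 0.69, 95% interval 0.24 to 1.13, adjusted p = 0.0297). However, when vehicle library 5 or 6, or semaglutide library 40 or 41 was left out alone, the adjusted p of Ccl9 was 0.0544 to 0.0884. Ccl3 was at 0.04 and 1.14 and Ccl8 at -0.94 and 0.03 for the 2 highest doses, none of which passed. At semaglutide 100 nmol/kg Ccl6 passed upward without vehicle library 1 or 3, BI456906 library 29 or semaglutide library 38, and Ccl3 without vehicle library 1 or 4, BI456906 library 29 or semaglutide library 38, with adjusted p of 0.0148 to 0.0369 and 0.0262 to 0.0499. The Ccl8 values in vehicle eWAT ran from 18.4 to 1194 TPM, the widest range of the chemokines there.

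Tnf had a median of 4.58 TPM in the vehicle fat pads, with a range of 2.21 to 8.82. Tnf medians at 3, 10, 20 and 30 nmol/kg of BI456906 were 4.32, 4.43, 3.38 and 1.47 TPM, with ranges of 1.76 to 5.38, 2.44 to 6.97, 1.5 to 4.28 and 1.13 to 2.71. Tnf in the semaglutide groups had medians of 2.46 TPM at 20 and 3.29 TPM at 100 nmol/kg, with ranges of 1.53 to 3.81 and 1.38 to 5.34. Tnf overlapped with vehicle in every group, and it fell at BI456906 30 nmol/kg (log2 fold change -1.42, 95% interval -2.17 to -0.66, adjusted p = 0.00579). It missed the threshold without vehicle libraries 1 and 3 (-0.99, adjusted p = 0.0719). Il1b had a median of 1.52 TPM in the vehicle fat pads, with a range of 1.05 to 4.34. Il1b medians at 3, 10, 20 and 30 nmol/kg of BI456906 were 1.07, 0.72, 0.725 and 0.275 TPM, with ranges of 0.3 to 1.84, 0.42 to 2.05, 0 to 1.29 and 0.19 to 0.36. Il1b in the semaglutide groups had medians of 0.545 TPM at 20 and 0.465 TPM at 100 nmol/kg, with ranges of 0.23 to 0.98 and 0.11 to 202. Il1b lay below all vehicle fat pads at BI456906 30 and semaglutide 20 nmol/kg without passing. Its log2 fold changes there were -2.56 (95% interval -4.80 to -0.32, adjusted p = 0.0861) and -1.77 (95% interval -3.78 to 0.23, adjusted p = 0.308). Semaglutide 100 nmol/kg library 40 held 202 TPM of Il1b where the next library of its group held 0.69, and this library's neutrophil marker sum was 469 TPM. Without it, Il1b fell at BI456906 30 nmol/kg (-2.53, adjusted p = 0.00103) and at semaglutide 100 nmol/kg (-2.06, adjusted p = 0.0115). The 5 neutrophil markers, 1 of them under 1 TPM in all libraries of these groups, summed to 10.9 to 19.7 TPM in vehicle eWAT and 4.44 to 9.05 at BI456906 30 nmol/kg, with no overlap, and their part in the lower Il1b and Tnf values was not tested.

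Cd14 had a median of 55.9 TPM in the vehicle fat pads, with a range of 38.9 to 61.2. Cd14 medians at 3, 10, 20 and 30 nmol/kg of BI456906 were 61.5, 68.5, 59.8 and 62 TPM, with ranges of 53.2 to 71.9, 43.5 to 100.2, 51.2 to 74.5 and 53.3 to 79.1. Cd14 in the semaglutide groups had medians of 61.7 TPM at 20 and 62 TPM at 100 nmol/kg, with ranges of 50.1 to 78 and 51.8 to 256. Cd14 overlapped in every group and did not pass, with log2 fold changes of 0.25 (95% interval -0.23 to 0.73, adjusted p = 0.468) and 0.58 (95% interval 0.09 to 1.06, adjusted p = 0.097). Its highest value of 256 TPM was again in semaglutide library 40. Il1rn was at -0.93 (95% interval -1.81 to -0.04) and 0.40 (95% interval -0.47 to 1.27), Tlr2 at -0.54 (95% interval -1.10 to 0.03) and -0.15 (95% interval -0.69 to 0.40) and Tlr4 at -0.13 (95% interval -0.37 to 0.12) and 0.29 (95% interval 0.04 to 0.53) for the 2 highest doses, and none passed. Without semaglutide library 38, Cd14 and Tlr4 passed upward at semaglutide 100 nmol/kg (0.71, adjusted p = 0.0411, and 0.38, adjusted p = 0.0297).

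**Figure D4:**
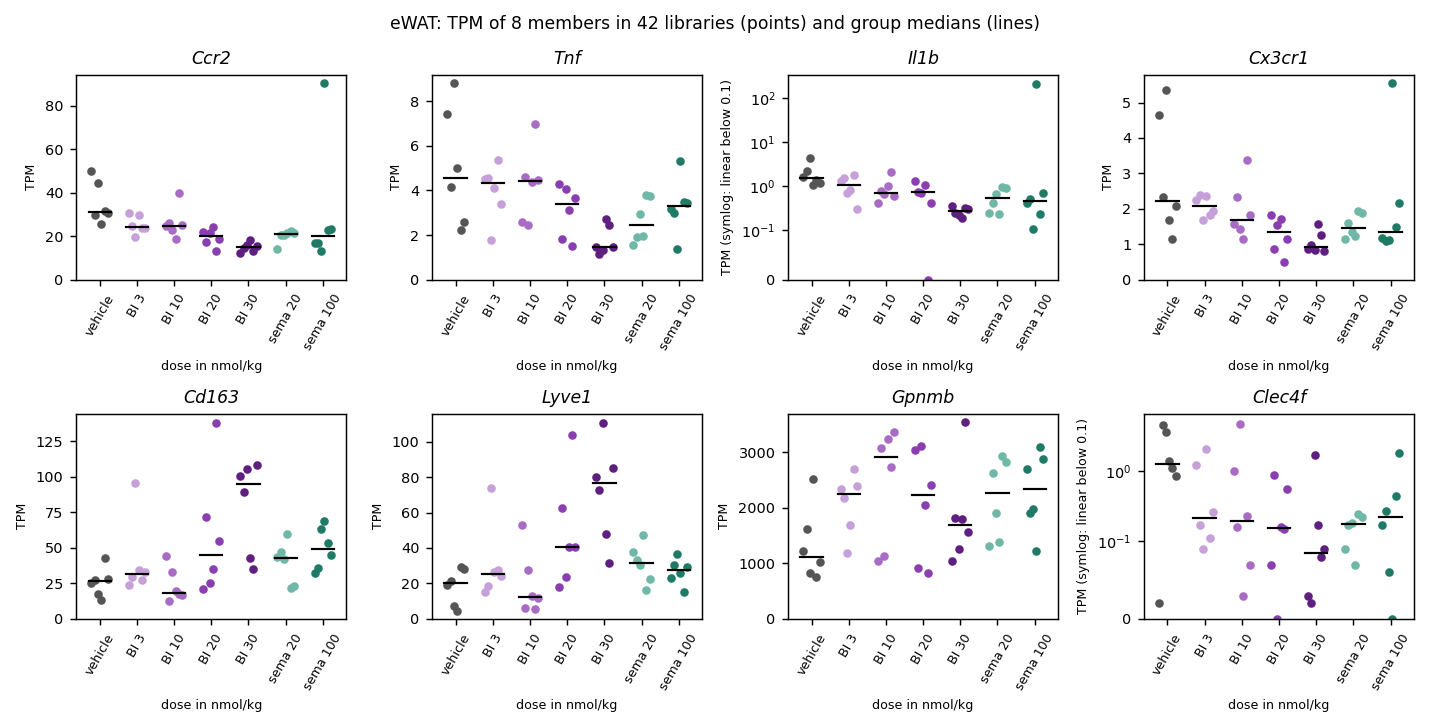
TPM in the 42 eWAT libraries (points) and group medians (lines) for Ccr2, Tnf, Il1b, Cx3cr1, Cd163, Lyve1, Gpnmb and Clec4f, by group with doses in nmol/kg. Panels labelled symlog are linear below 0.1 TPM. Ccr2 lies at 25.5 to 50.1 TPM in vehicle fat pads and lower at BI456906 30 nmol/kg, and 1 semaglutide library stands at 202 TPM of Il1b.

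Of the 11 lipid-associated macrophage genes, 0 passed the test in eWAT at BI456906 30 nmol/kg by limma/voom, with 0 at an unadjusted p under 0.05 and 0 by edgeR and DESeq2, and their median log2 fold change was 0.22. Gpnmb had a median of 1121 TPM in the vehicle fat pads, with a range of 752 to 2514. Gpnmb medians at 3, 10, 20 and 30 nmol/kg of BI456906 were 2257, 2909.8, 2231 and 1687 TPM, with ranges of 1184 to 2697, 1049 to 3366, 833 to 3121 and 1048 to 3555. Gpnmb in the semaglutide groups had medians of 2266 TPM at 20 and 2343 TPM at 100 nmol/kg, with ranges of 1306 to 2937 and 1225 to 3093. Gpnmb overlapped with vehicle in every group, and its log2 fold change was 0.47 (95% interval -0.25 to 1.20, adjusted p = 0.354) and 0.87 (95% interval 0.13 to 1.61, adjusted p = 0.101). The highest value, 3555 TPM, was in BI456906 30 nmol/kg library 29. Gpnmb passed upward at semaglutide 100 nmol/kg without vehicle library 4 (1.07, adjusted p = 0.0381).

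Acp5 had a median of 276 TPM in the vehicle fat pads, with a range of 229 to 375. Acp5 medians at 3, 10, 20 and 30 nmol/kg of BI456906 were 283, 278, 256 and 255 TPM, with ranges of 261 to 332, 197 to 356, 221 to 337 and 237 to 290.2. Acp5 in the semaglutide groups had medians of 269 TPM at 20 and 281 TPM at 100 nmol/kg, with ranges of 216 to 332 and 165 to 318. Acp5 spanned less than the other lipid-associated genes here and overlapped with vehicle in every group. It had log2 fold changes of -0.17 (95% interval -0.45 to 0.12, adjusted p = 0.408) and -0.17 (95% interval -0.45 to 0.11, adjusted p = 0.433). Lgals3 had a median of 3738 TPM in the vehicle fat pads, with a range of 2377 to 5457. Lgals3 medians at 3, 10, 20 and 30 nmol/kg of BI456906 were 5206, 6179.6, 4766 and 3428 TPM, with ranges of 3148 to 6356, 2830.2 to 6999, 2073 to 6242 and 2620.4 to 7599. Lgals3 in the semaglutide groups had medians of 5133 TPM at 20 and 4962 TPM at 100 nmol/kg, with ranges of 3237 to 6507 and 4049 to 6784. Lgals3 overlapped in every group too, with log2 fold changes of 0.03 (95% interval -0.54 to 0.59, adjusted p = 0.957) and 0.48 (95% interval -0.10 to 1.07, adjusted p = 0.264), and BI456906 30 nmol/kg library 29 stood at 7599 TPM.

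Spp1 was the lipid-associated gene that rose in eWAT with semaglutide. It ranged from 34.6 to 114 TPM in vehicle eWAT and from 101 to 1213 at semaglutide 100 nmol/kg, with overlap, and rose there (log2 fold change 1.82, 95% interval 0.72 to 2.92, adjusted p = 0.0204). However, when vehicle library 5, or semaglutide library 40 or 41 was left out alone, the adjusted p of Spp1 was 0.0513 to 0.0756. At BI456906 30 nmol/kg Spp1 had a log2 fold change of 0.53 (95% interval -0.51 to 1.56, adjusted p = 0.481). The remaining lipid-associated genes, Itgax, Trem2, Tyrobp, Cd9, Mmp12, Ctsk and Atp6v0d2, had log2 fold changes from -0.15 (Tyrobp) to 0.43 (Mmp12) at BI456906 30 nmol/kg and from 0.21 (Itgax) to 0.75 (Mmp12) at semaglutide 100 nmol/kg, and none passed.

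Of the 6 identity genes, 0 passed at either highest dose in eWAT by limma/voom, edgeR and DESeq2, with 1 of 6 at an unadjusted p under 0.05 in each comparison. Lyz2 had a median of 4406 TPM in the vehicle fat pads, with a range of 1975 to 6299. Lyz2 medians at 3, 10, 20 and 30 nmol/kg of BI456906 were 4793, 6374, 4015 and 2795 TPM, with ranges of 2876 to 5416, 2729 to 7782, 2020.1 to 5065 and 2276 to 6013. Lyz2 in the semaglutide groups had medians of 4864 TPM at 20 and 5161 TPM at 100 nmol/kg, with ranges of 2926 to 6248 and 3315 to 7295. Lyz2 overlapped with vehicle in every group and had log2 fold changes of -0.37 (95% interval -0.99 to 0.25, adjusted p = 0.4) and 0.39 (95% interval -0.26 to 1.04, adjusted p = 0.434). Library 29 of BI456906 30 nmol/kg was at 6013 TPM.

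Adgre1 had a median of 291 TPM in the vehicle fat pads, with a range of 143 to 418. Adgre1 medians at 3, 10, 20 and 30 nmol/kg of BI456906 were 280.4, 305, 243 and 165 TPM, with ranges of 162 to 304, 159 to 625, 111 to 282 and 136 to 259. Adgre1 in the semaglutide groups had medians of 267 TPM at 20 and 288 TPM at 100 nmol/kg, with ranges of 184 to 293 and 213 to 386. Adgre1 overlapped in every group and had a log2 fold change of -0.59 (95% interval -1.17 to -0.01, adjusted p = 0.127), and its slope over the BI456906 doses was below 0, at -0.23 (95% interval -0.39 to -0.06, adjusted p = 0.0331) per 10 nmol/kg. Csf1r had a median of 279 TPM in the vehicle fat pads, with a range of 184 to 309.7. Csf1r medians at 3, 10, 20 and 30 nmol/kg of BI456906 were 280.2, 286, 244 and 194 TPM, with ranges of 215 to 302, 189 to 385, 157 to 264 and 183 to 267. Csf1r in the semaglutide groups had medians of 251 TPM at 20 and 259.9 TPM at 100 nmol/kg, with ranges of 177 to 267 and 200.2 to 411. Csf1r overlapped as well, with a log2 fold change of -0.33 (95% interval -0.70 to 0.04, adjusted p = 0.192) and a slope of -0.14 (95% interval -0.25 to -0.04, adjusted p = 0.0392). Cd68 (0.04), Ctss (-0.22) and Itgam (-0.04) were close to 0 at BI456906 30 nmol/kg.

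Kupffer cell genes were low in eWAT. At each highest dose 0 of 5 passed by limma/voom, with 1 of 5, Clec4f, at an unadjusted p under 0.05. Clec4f had a median of 1.27 TPM in the vehicle fat pads, with a range of 0.02 to 4.65. Clec4f medians at 3, 10, 20 and 30 nmol/kg of BI456906 were 0.215, 0.195, 0.155 and 0.085 TPM, with ranges of 0.09 to 2.07, 0.03 to 4.85, 0 to 0.89 and 0.02 to 1.71. Clec4f in the semaglutide groups had medians of 0.175 TPM at 20 and 0.22 TPM at 100 nmol/kg, with ranges of 0.07 to 0.25 and 0 to 1.81. Clec4f overlapped with vehicle in every group and had log2 fold changes of -2.96 (95% interval -5.40 to -0.53, adjusted p = 0.0675) and -2.99 (95% interval -5.44 to -0.55, adjusted p = 0.0863). Clec4f passed at BI456906 30 nmol/kg by edgeR and DESeq2, as did Cd5l, and by limma/voom without vehicle library 1 (-3.93, adjusted p = 0.00332). Without that library Clec4f also passed at semaglutide 100 nmol/kg (-3.99, adjusted p = 0.00403). The 6 hepatocyte markers, all detected in eWAT, summed to 28.3 to 7019.8 TPM in vehicle and 25.7 to 1116 and 8.25 to 1421 at the highest doses. These ranges overlapped, with medians of 1926, 119 and 105 TPM. Their relation to Clec4f across libraries was not computed, and their part in its value was not tested.

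Marco had a median of 2.27 TPM in the vehicle fat pads, with a range of 1.71 to 9.82. Marco medians at 3, 10, 20 and 30 nmol/kg of BI456906 were 1.31, 2.46, 1.26 and 1.38 TPM, with ranges of 0.86 to 2.63, 1.23 to 10, 1.24 to 1.9 and 0.88 to 5.98. Marco in the semaglutide groups had medians of 1.59 TPM at 20 and 2.29 TPM at 100 nmol/kg, with ranges of 0.59 to 2.78 and 0.99 to 3.87. Marco, a bacterial scavenger receptor, overlapped in every group and had log2 fold changes of -0.88 (95% interval -1.86 to 0.11, adjusted p = 0.188) and -0.59 (95% interval -1.55 to 0.37, adjusted p = 0.421). Cd5l had a median of 7.59 TPM in the vehicle fat pads, with a range of 1.65 to 32.4. Cd5l medians at 3, 10, 20 and 30 nmol/kg of BI456906 were 4.67, 7.68, 2.3 and 1.67 TPM, with ranges of 0.88 to 8, 2.39 to 22.2, 1.8 to 4.56 and 0.85 to 7.93. Cd5l in the semaglutide groups had medians of 4.17 TPM at 20 and 12.4 TPM at 100 nmol/kg, with ranges of 1.93 to 12.1 and 2.47 to 69.7. Cd5l overlapped as well and had log2 fold changes of -1.71 (95% interval -3.65 to 0.24, adjusted p = 0.196) and 1.22 (95% interval -0.16 to 2.59, adjusted p = 0.227). Cd5l passed upward at semaglutide 100 nmol/kg without semaglutide library 38 (1.75, adjusted p = 0.0494). Timd4 was at 0.39 and Vsig4 at -0.09 for BI456906 30 nmol/kg.

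The 2 members that rose in eWAT with BI456906 were scavenger receptor genes. Lyve1 had a median of 20.3 TPM in the vehicle fat pads, with a range of 4.68 to 29.2. Lyve1 medians at 3, 10, 20 and 30 nmol/kg of BI456906 were 25.3, 12.3, 40.7 and 76.5 TPM, with ranges of 15.3 to 73.7, 5.75 to 53, 17.9 to 104 and 31.6 to 110.4. Lyve1 in the semaglutide groups had medians of 31.7 TPM at 20 and 27.6 TPM at 100 nmol/kg, with ranges of 16.3 to 47.2 and 15.3 to 36.5. Lyve1 lay above all vehicle fat pads at 30 nmol/kg of BI456906 and overlapped in the other groups. Its log2 fold change was 2.17 (95% interval 1.21 to 3.14, adjusted p = 0.00125), 4.51-fold higher, and 0.85 (95% interval -0.09 to 1.79, adjusted p = 0.216) at semaglutide 100 nmol/kg. Markers of endothelium, which also carries Lyve1 in lymphatics, summed to 260.1 to 381 TPM in vehicle eWAT and 178 to 359.9 at BI456906 30 nmol/kg, with overlap. These markers, Pecam1, Cdh5, Kdr and Stab2, were not chosen to mark lymphatics, and the part of lymphatic cells in the Lyve1 values was not tested.

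Cd163 had a median of 26.4 TPM in the vehicle fat pads, with a range of 13.1 to 42.6. Cd163 medians at 3, 10, 20 and 30 nmol/kg of BI456906 were 31.3, 18.3, 44.9 and 94.8 TPM, with ranges of 24.2 to 95.4, 12.5 to 44.3, 20.9 to 138 and 35 to 108. Cd163 in the semaglutide groups had medians of 42.8 TPM at 20 and 49 TPM at 100 nmol/kg, with ranges of 22 to 59.8 and 32.3 to 68.8. Cd163 overlapped with vehicle in every group. It rose at BI456906 30 nmol/kg (log2 fold change 1.60, 95% interval 0.80 to 2.39, adjusted p = 0.00343) and had a log2 fold change of 1.00 (95% interval 0.24 to 1.77, adjusted p = 0.0653) at semaglutide 100 nmol/kg, where it passed without vehicle library 5 (1.18, adjusted p = 0.0477). Folr2 had a median of 147 TPM in the vehicle fat pads, with a range of 132 to 187. Folr2 medians at 3, 10, 20 and 30 nmol/kg of BI456906 were 174, 153, 135 and 134 TPM, with ranges of 149 to 234, 129 to 192, 124 to 169.9 and 116 to 159.9. Folr2 in the semaglutide groups had medians of 167 TPM at 20 and 194 TPM at 100 nmol/kg, with ranges of 141 to 207 and 157 to 307. Folr2 overlapped in every group. Its log2 fold change was -0.19 (95% interval -0.47 to 0.10, adjusted p = 0.354) at BI456906 30 nmol/kg, and it rose at semaglutide 100 nmol/kg (log2 fold change 0.51, 95% interval 0.22 to 0.81, adjusted p = 0.0153). However, when semaglutide library 40 or 41 was left out alone, the adjusted p of Folr2 was 0.0541 to 0.0592. Clec10a rose at semaglutide 100 nmol/kg (log2 fold change 0.78, 95% interval 0.40 to 1.17, adjusted p = 0.00511), and passed under every library left out.

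Other cell types of eWAT moved beside these genes. The 3 fibroblast markers summed to 1312 to 1961 TPM in vehicle eWAT, 2071 to 2580.2 at BI456906 30 nmol/kg and 1733 to 2574 at semaglutide 100 nmol/kg, with no overlap between the first pair. The 6 adipocyte markers summed to 17206 to 33177, 15526 to 28729.7 and 11463 to 26235 TPM, and the 5 T and NK cell markers to 7.61 to 140.5, 13.3 to 26.8 and 12.6 to 36.8, all overlapping. Dendritic cell markers summed to 17.2 to 44.5, 13.8 to 25.4 and 19.4 to 53 TPM. All markers of these lists were detected, and their part in the changes of the members was not tested. In eWAT, 4 members lay wholly below vehicle at BI456906 30 nmol/kg (Ccr2, Ccl2, Ccl7 and Il1b) and 1 wholly above (Lyve1), and at semaglutide 20 nmol/kg 3 lay wholly below (Ccr2, Ccl7 and Il1b). All 42 overlapped with vehicle at semaglutide 100 nmol/kg. The share of all genes that separated from vehicle in eWAT was not counted either.

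The 2 tissues were then compared in 1 fit over all 84 libraries, with the eWAT change minus the liver change as the tested value. For BI456906 30 nmol/kg, 11 members were higher in eWAT relative to liver and 1 was lower, against 21.5% and 17% of the 19249 genes tested. The share of the 42 members that was higher was near that of all genes, and the share that was lower was below it. For semaglutide 100 nmol/kg 16 were higher and 0 lower by limma/voom, against 13.5% and 14%, with 20 of 42 at an unadjusted p under 0.05, while edgeR and DESeq2 had Clec4f lower. Lipid-associated genes made up 7 of the 11, namely Spp1, Mmp12, Atp6v0d2, Itgax, Gpnmb, Lgals3 and Acp5, and the others were Lyve1, Ccl9, Cd14 and Cd68. The difference for Mmp12 was 2.69 (95% interval 0.99 to 4.38, adjusted p = 0.00849) on the log2 scale with BI456906 and 2.87 (95% interval 1.18 to 4.55, adjusted p = 0.00743) with semaglutide. For Spp1 it was 2.48 (95% interval 1.14 to 3.82, adjusted p = 0.00204) and 3.07 (95% interval 1.76 to 4.38, adjusted p = 0.000231), for Atp6v0d2 2.30 (95% interval 1.12 to 3.47, adjusted p = 0.00112) and 2.15 (95% interval 1.03 to 3.26, adjusted p = 0.00237).

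Among the 12 that passed, Lyve1 had the largest difference for BI456906 30 nmol/kg (log2 fold change 2.87, 95% interval 1.79 to 3.96, adjusted p = 1.33e-05), with a rise in eWAT and a fall in liver. Mrc1 was the member that was lower in eWAT relative to liver, -0.73 (95% interval -1.23 to -0.24, adjusted p = 0.0135). For the recruitment genes the difference between tissues did not pass with BI456906, 0.01 (95% interval -1.02 to 1.03, adjusted p = 0.992) for Ccr2, 1.92 (95% interval -0.41 to 4.24, adjusted p = 0.196) for Ccl2 and 2.13 (95% interval -1.11 to 5.36, adjusted p = 0.319) for Ccl7. At semaglutide 100 nmol/kg the members that passed also included Trem2 (1.64), Tyrobp (1.18), Ctss (1.04), Ccl3 (2.98), Cd5l (1.77) and Clec10a (1.87). Leaving out eWAT semaglutide library 40 gave 15 members in place of 16. The fit without a filter on low values gave 3 and 4 members in place of 12 and 16.

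**Figure D5:**
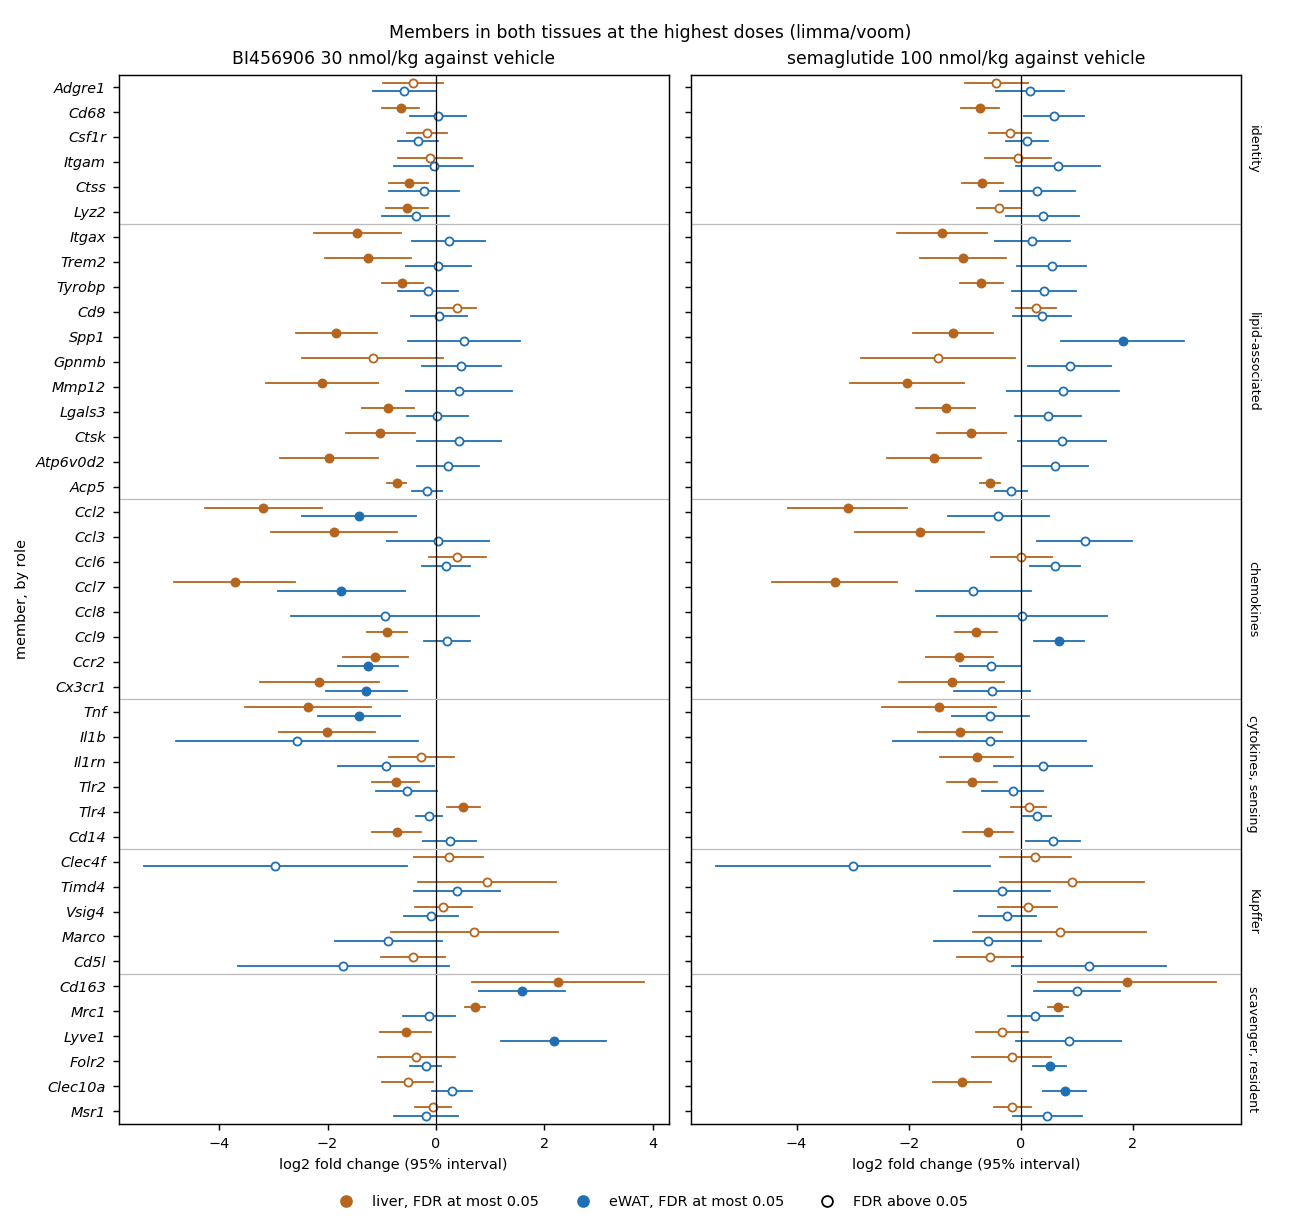
log2 fold change against vehicle with 95% intervals (horizontal) of the 42 genes by role (vertical) in liver and eWAT, for BI456906 30 nmol/kg (left) and semaglutide 100 nmol/kg (right), with filled points where the adjusted p was at most 0.05. The lipid-associated genes lie left of 0 in liver for 10 of 11 genes with BI456906 and near or right of 0 in eWAT.

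The compounds were compared directly in 2 pairs of groups per tissue, with p adjusted over all genes of each pair. At the matched dose of 20 nmol/kg, 0 of 41 members differed in liver and 0 of 42 in eWAT by limma/voom, against 2.42% and 0% of all genes, with 1 and 2 at an unadjusted p under 0.05, and edgeR and DESeq2 gave 0 as well. For BI456906 30 against semaglutide 100 nmol/kg, doses that differ, 0 of 41 passed in liver and 0 of 42 in eWAT, against 9.75% and 0.0108% of all genes, with 1 and 16 at an unadjusted p under 0.05. In liver edgeR gave 0 and DESeq2 1, Il1b. The liver difference was -0.10 (95% interval -1.47 to 1.27) for Ccl2, -0.63 (95% interval -1.38 to 0.13) for Spp1, -0.93 (95% interval -1.89 to 0.03) for Il1b and 0.06 (95% interval -0.12 to 0.25) for Mrc1. In eWAT the difference was -1.30 (95% interval -2.40 to -0.19) for Spp1, 1.32 (95% interval 0.39 to 2.25) for Lyve1, -0.76 (95% interval -1.40 to -0.12) for Lyz2 and -0.70 (95% interval -0.99 to -0.41) for Folr2. These intervals hold differences of 2-fold for several genes, so a like response was not shown.

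The eWAT difference between the compounds depended on the tool and on single libraries. For the highest doses, edgeR passed 6 members and DESeq2 10, and both passed Ccr2, Ccl7, Folr2, Tlr4 and Cd5l. Without BI456906 library 29, 8 members passed by limma/voom, and 7 of them, Adgre1, Lyz2, Cd5l, Il1rn, Folr2, Tlr4 and Clec10a, were lower with BI456906 while Lyve1 was higher. Without semaglutide library 39 or 38, 5 and 3 members passed. Shares of all genes for these tools and leave-outs are not given here, so the counts describe the members alone. Library 29 had the lowest adipocyte marker sum and the lowest endothelium marker sum of its group, 15526 and 178 TPM.

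Other macrophage genes, from lists not used to choose the 42, were followed at BI456906 30 nmol/kg. Of 16 lysosome and lipid handling genes, 13 fell and 1 rose in liver, against 29.9% and 28.9% of all genes, and 2 fell in eWAT (12.5%), a share close to the 13% of all genes. Lamp1, a lysosomal membrane protein, fell in liver (log2 fold change -0.62, 95% interval -0.74 to -0.51, adjusted p = 3.01e-11). Apoe, which hepatocytes also make in quantity, fell by a like amount (log2 fold change -0.59, 95% interval -0.72 to -0.46, adjusted p = 7.63e-10), as did the protease Ctsd (log2 fold change -0.57, 95% interval -0.71 to -0.44, adjusted p = 4.27e-09). Lamp1 and Ctsd averaged 379 and 284 TPM over the liver libraries, against 13.7 for Cd68. The part of cells other than macrophages in these falls was not tested. In eWAT the 2 were Lpl, the lipoprotein lipase of adipocytes (log2 fold change -0.70, 95% interval -0.87 to -0.52, adjusted p = 1.1e-06), and Npc2, a lysosomal cholesterol carrier (log2 fold change -0.44, 95% interval -0.60 to -0.27, adjusted p = 0.0002).

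Of 15 further myeloid genes, 7 (46.7%) fell in liver, against the same 29.9% of all genes. The Fc receptor gene Fcgr1 fell (log2 fold change -0.96, 95% interval -1.46 to -0.47, adjusted p = 0.000933), as did the chemokine receptor gene Ccr1 (log2 fold change -1.95, 95% interval -3.01 to -0.89, adjusted p = 0.00159). Of 5 further Kupffer cell genes 0 passed in liver by limma/voom, edgeR or DESeq2, with 0 at an unadjusted p under 0.05, while in eWAT 2 of them fell, C6 (log2 fold change -1.48, 95% interval -2.09 to -0.87, adjusted p = 0.000562) and the iron exporter Slc40a1 (log2 fold change -0.62, 95% interval -1.09 to -0.15, adjusted p = 0.048). Both had higher levels in liver than in eWAT, with means over all libraries of 62.8 and 7.01 TPM for C6 and 82.8 and 18.4 for Slc40a1. The hepatocyte markers in eWAT had a median sum of 1926 TPM in vehicle and 119 at BI456906 30 nmol/kg, and their part in these falls was not tested. Of 3 ligands of macrophage receptors, Cx3cl1 (log2 fold change -1.01, 95% interval -1.71 to -0.31, adjusted p = 0.0115) and Csf1 (log2 fold change -0.42, 95% interval -0.76 to -0.08, adjusted p = 0.0289) fell in liver, and Il34, a second ligand of the Csf1r receptor, rose in eWAT (log2 fold change 0.33, 95% interval 0.10 to 0.56, adjusted p = 0.0322).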

How the data were processed

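RNA-seq libraries of eWAT and liver, 84 in all, were analysed. The authors deposited a signal table and a TPM table for each tissue. In the signal table, reads per gene had been divided by 1 factor per library, and dividing each library by its smallest step gave whole reads for 100% of values, within a tolerance of 0.1. The deposited TPM values had the same total in each library. The submitters' processing notes name STAR 2.5.2b, RSEM 1.3.0, featureCounts 1.5.1 and FastQC 0.11.5 with the builds mm10 and GRCm38, in no stated order. The annotation was not given in the sources used here. The labels describe a SMART-Seq kit, whereas the study's methods state a directional poly(A) kit for liver and none for eWAT, so reads of overlapping and antisense genes may be mixed.

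Gene identifiers were matched to symbols with GENCODE M21 (GRCm38), and promoters were taken from RefSeq. Each tissue was fitted on the deposited signal with limma 3.58.1 (voom, TMM factors from edgeR 4.0.16, filterByExpr, pseudocount 0.5, R 4.3.3) over its 42 libraries, with 1 mean per group and no covariate. Adjusted p-values are Benjamini-Hochberg values over all genes of a comparison, and intervals are 95% intervals of the fit. The difference between tissues was fitted on the recovered reads of both, as 14 groups. It treated the libraries as independent, since the labels used here do not tie an eWAT library to a liver library. Whether both came from the same mice was not known. Alternatives were other scalings and filters, edgeR's quasi-likelihood test and DESeq2 1.42.0 on the recovered reads, and limma on log2(TPM + 1) and log2(TPM + 0.1). At BI456906 30 nmol/kg the edgeR test passed 4772 genes lower and 4685 higher in liver, and 2795 and 1990 in eWAT. The fits were tested on simulated data before use.

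Groups came from the labels, except for the name semaglutide, and library numbers are those of the labels. For the semaglutide groups the labels give a code starting with EX and do not name the compound. That code was taken to be semaglutide, whose doses in the study's methods match the doses in these labels. Every member was named, and values in every group were given for the 2 members of each role with the smallest adjusted p at BI456906 30 nmol/kg in a tissue and for the member of each role with the highest level. Of each further list at most 3 genes were named, and some results of the further myeloid genes are not reported here. The members, lists and tests were chosen with earlier results of these data known.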

Additional observations from a re-analysis of the deposited data

Results flagged for a closer look

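Single libraries stood apart from the other 5 of their group for 39 of the 231 combinations of member and group examined, 16.9%, by Dixon's test. For independent, normally distributed values, chance would set apart about 1 in 20 such groups. The TPM values were not transformed and members measured in 1 library are not independent, so the share found does not measure an excess. In eWAT, BI456906 30 nmol/kg library 29 was the highest of its group for 7 members, with 7599 TPM of Lgals3 (next library 4077), 6013 of Lyz2 (3112), 3555 of Gpnmb (1813), 1697 of Ccl6 (1069), 267 of Csf1r (213), 7.93 of Cd5l (2.1) and 5.98 of Marco (2.11). Semaglutide 100 nmol/kg library 40 was the highest for Cd14 at 256 TPM (next 72.3), Il1b at 202 (0.69), Ccr2 at 90.5 (23.2) and Cx3cr1 at 5.54 (2.16). Vehicle library 3 held 32.4 TPM of Cd5l (10.4), 9.82 of Marco (2.88) and 4.34 of Il1b (2.19).

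Of the other eWAT libraries, BI456906 3 nmol/kg library 9 was high for Cd163 at 95.4 TPM (next 34.4) and Lyve1 at 73.7 (27.6). At 10 nmol/kg library 17 was high for Ccr2 at 39.8 TPM (25.9) and Il1b at 2.05 (1.0), and at 20 nmol/kg library 19 for Cd5l at 4.56 (2.76). Clec4f stood out in library 15 of 10 nmol/kg at 4.85 TPM (1.03), library 27 of 30 nmol/kg at 1.71 (0.17) and semaglutide 100 nmol/kg library 42 at 1.81 (0.44). In semaglutide 20 nmol/kg library 31, Ccr2 was the lowest of its group at 14.1 TPM (next 20.7).

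In liver, BI456906 3 nmol/kg library 49 was high for Spp1 at 91.8 TPM (next 48.6), Ccl2 at 7.26 (2.52) and Ccl7 at 1.75 (0.58). Library 56 of 10 nmol/kg was high for Cd5l at 198 TPM (69.4), Acp5 at 148 (120.2) and Tnf at 1.4 (0.4). Lyz2 was high in library 61 of 20 nmol/kg at 110.2 TPM (73.6). At 30 nmol/kg library 70 was high for Ccl9 at 24.5 TPM (15.8), and library 71 was high for Spp1 at 45.5 (19.8) and the lowest for Il1b at 0.3 (0.9). Semaglutide 20 nmol/kg library 75 was high for Lyz2 at 100.4 TPM (61.1) and Cd68 at 16.7 (10.3). Semaglutide 100 nmol/kg library 82 was high for Clec4f at 105 TPM (74.9), Il1b at 6.01 (1.61) and Ccl7 at 0.19 (0.07), and vehicle library 45 for Tnf at 1.21 (0.38).

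The change against vehicle differed between eWAT and liver for 12 members at BI456906 30 nmol/kg and 16 at semaglutide 100 nmol/kg, by the fit over both tissues. Of all genes, 21.5% were higher in eWAT relative to liver and 17% lower with BI456906, and 13.5% and 14% with semaglutide. At BI456906 30 nmol/kg the eWAT minus liver difference in log2 fold change was 2.87 for Lyve1, 2.69 for Mmp12, 2.48 for Spp1, 2.30 for Atp6v0d2, 1.84 for Itgax, 1.80 for Gpnmb, 1.23 for Ccl9, 1.12 for Cd14, 1.06 for Lgals3, 0.82 for Cd68, 0.68 for Acp5 and -0.73 for Mrc1. At semaglutide 100 nmol/kg it was 3.07 for Spp1, 2.98 for Ccl3, 2.87 for Mmp12, 2.47 for Gpnmb, 2.15 for Atp6v0d2, 1.90 for Lgals3, 1.87 for Clec10a, 1.77 for Cd5l, 1.68 for Itgax, 1.64 for Trem2, 1.55 for Ccl9, 1.38 for Cd68, 1.25 for Cd14, 1.18 for Tyrobp, 1.04 for Ctss and 0.45 for Acp5.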

How the results depend on the processing

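No paired analysis was possible because library numbers are unique to each group and the labels give no batch. Liver Ccl3, Ccl7 and Tnf had few reads, which limits the precision of their fold changes, and TPM levels of eWAT and liver came from separately normalized tables. The alternatives that left out libraries (each vehicle, BI456906 30 nmol/kg and semaglutide 100 nmol/kg library, vehicle eWAT libraries 1 and 3 together, and eWAT library 40 in the fit of both tissues) were chosen after seeing the data. Scaling by library size alone kept the median log2 fold change of all genes within 0.1 of 0. Over the single members at the 2 highest doses, 4227 alternative values kept their side of the threshold. Of the others, 94 missed the threshold that the reported value passed and 67 passed where it did not. Among the members that passed, 0 changed sign, and changes of sign among those that did not pass were not counted. The causes were not tested.

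The counts below are of members called at 2-fold in eWAT unless another measure is named. Shares of all genes are not given beside them, and the counts describe the members alone. Shares called at 2-fold were given above for BI456906 30 and semaglutide 100 nmol/kg only. With single libraries left out they ran from 0 to 2 at BI456906 20 (reported 0), 5 to 8 at BI456906 30 (7), 0 to 2 at semaglutide 20 (0) and 0 to 3 at semaglutide 100 nmol/kg (1), and from 5 to 12 for slopes that passed (11). Without vehicle libraries 1 and 3 the same counts were 1, 4, 1, 2 and 7. DESeq2 gave 6, 1 and 3 for BI456906 20, semaglutide 20 and semaglutide 100 nmol/kg, edgeR 1, 1 and 3, and library size alone gave 2 for semaglutide 100 nmol/kg. With no filter 7 slopes passed. For BI456906 30 against semaglutide 100 nmol/kg in eWAT, 0 passed as reported, 0 to 8 with single libraries left out, 10 by DESeq2, 6 by edgeR, and 1 each with RLE factors, library size alone, at least 10 counts in every library, log2(TPM + 0.1) and log2(TPM + 1).

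In liver, leaving out single libraries gave 1 to 2 called members at BI456906 3 nmol/kg (reported 1), 3 to 7 at 10 (4), 5 to 12 at 20 (5) and 12 to 16 at 30 nmol/kg (14), 7 to 12 at semaglutide 20 (10) and 9 to 17 at semaglutide 100 nmol/kg (15), with 26 to 28 slopes (27) and 0 to 1 member between the compounds at their highest doses (0, and 1 by DESeq2). With log2(TPM + 1) the 6 counts against vehicle were 0, 2, 2, 6, 3 and 5. With at least 10 counts in every library they were 0, 2 and 3 at 3, 10 and 20 nmol/kg of BI456906 and 6 at semaglutide 20 nmol/kg. At 3 nmol/kg edgeR and DESeq2 each gave 0, and at semaglutide 100 nmol/kg log2(TPM + 0.1) gave 9. The difference between tissues passed for 12 members at BI456906 30 nmol/kg and for 19 by DESeq2, and with no filter for 3, and for 4 in place of 16 at semaglutide 100 nmol/kg. As for eWAT, shares of all genes are not given beside the counts of this paragraph.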
